A study of Mus musculus with 6 samples.

Results

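The genes described are 10 protein-coding genes of mouse chromosome 3 that lie 30.2 to 70.3 Mb from *Fmo5*, on its lower-coordinate side, and that were chosen by the measured difference in their expression between the livers of WT and *Fmo5*-/- mice. They are 10 of the 54446 genes of the deposited count tables, and all 10 are among the 16734 genes with enough reads for a test. The liver transcriptome was measured by RNA-seq in 3 WT and 3 *Fmo5*-/- mice, with 1 library per mouse. All were males of 32 weeks of age on a C57BL/6 background by the labels (C57BL/6J by the study's methods), fed a standard chow diet. The *Fmo5*-/- mice carry the disrupted gene on both alleles, the WT mice carry the intact gene, and the labels name no treatment for either group. The sources used here do not say whether the mice were littermates, or how many founder animals the line goes back to, so the genotype and any other difference between the 2 groups of animals cannot be told apart.

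FMO5 is a flavin-containing monooxygenase, an NADPH-dependent enzyme of the endoplasmic reticulum that is abundant in hepatocytes. The 10 genes belong to no common pathway. MME (neprilysin) cuts peptide hormones at the cell surface, SUCNR1 is a receptor for extracellular succinate, AADAC is an esterase of the endoplasmic reticulum and FGF2 is a growth factor that binds FGF receptors and heparan sulphate. SLC33A1 carries acetyl-CoA into the endoplasmic reticulum, GFM1 is a mitochondrial translation elongation factor, EXOSC9 is a subunit of the RNA exosome, NUDT6 has a Nudix hydrolase domain and is encoded opposite FGF2, and TNFSF10 (TRAIL) is a cytokine of the TNF family. The product of *1810062G17Rik* has no role given here.

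The libraries held 67753857 to 75632821 reads, of which 44886286 to 52338675 were counted on genes. In the livers of the 3 WT mice *Fmo5* had 39808, 37405 and 30240 normalized read counts (raw counts divided by the library size as scaled by TMM factors), and in those of the 3 *Fmo5*-/- mice 1071, 1102 and 1194, so the libraries carry the genotypes of their labels. Its log2 fold change, *Fmo5*-/- over WT, was -5.00 (adjusted p = 2.79e-07, edgeR). The 10 genes lie to the left of *Fmo5*, which spans chr3:97628804-97655282 (mm10, plus strand).

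Because the 10 genes were chosen for this same contrast, their values are given as a description, with standard errors (SE) and 95% confidence intervals but no test. The edgeR quasi-likelihood fit put all 10 past an adjusted p of 0.05, 9 of them lower and 1 higher in *Fmo5*-/- mice, where it put 1.37% of all tested genes past it in either direction, 0.693% lower and 0.675% higher. Without 1 library at a time, 2 to 9 of the 10 and 31 to 763 of all genes passed. The 2 of the 10 were reached without WT replicate 1 and without *Fmo5*-/- replicate 1, the 31 without *Fmo5*-/- replicate 1, and both highest counts without *Fmo5*-/- replicate 3. DESeq2 also put all 10 past it, where it put 8.96% of its tested genes, and 21.8% of the genes tested with edgeR had an unadjusted p under 0.05. For each of the 10 every value of one genotype was above every value of the other, which was the case for 27.4% of all tested genes. Their median log2 fold change was -0.74, beside 0.01 over all tested genes. The gene nearest to *Fmo5* was *Gfm1*, at 30.2 Mb, and the farthest *Tnfsf10*, at 70.3 Mb. The nearest gene past the threshold on the near side of the 30 Mb limit was *B3galnt1*, at 28.0 Mb, with 27.2 ± 7.33 normalized counts in WT and 132 ± 10.6 in *Fmo5*-/- mice (mean ± SD, n = 3).

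For sequence context, promoter windows of RefSeq (GRCm38.p6, 250 bases before to 50 after a start site) were matched by symbol for 9 of the 10 genes, and there was none for *Exosc9*. The 5 shown belong to the gene with the largest difference (*Mme*) and to 2 pairs of adjacent genes (*Aadac* with *Sucnr1* and *Fgf2* with *Nudt6*). *Mme* has 3 windows, and the one shown is chr3:63295622-63295921, which lies within the span of the longer gene model used for its position. The windows of *Aadac*, *Fgf2* and *Nudt6* also lie within the spans used for their positions, and that of *Sucnr1* runs across the start of its span. *Aadac* is at chr3:60031538-60031837, *Sucnr1* at chr3:60081619-60081918 and *Fgf2* at chr3:37348403-37348702, all on the plus strand like *Mme*, and *Nudt6* is at chr3:37419547-37419846 on the minus strand. Each is written 5′ to 3′ on the strand of its gene, and capitals mark matches to 10 motifs searched on both strands.
Mme: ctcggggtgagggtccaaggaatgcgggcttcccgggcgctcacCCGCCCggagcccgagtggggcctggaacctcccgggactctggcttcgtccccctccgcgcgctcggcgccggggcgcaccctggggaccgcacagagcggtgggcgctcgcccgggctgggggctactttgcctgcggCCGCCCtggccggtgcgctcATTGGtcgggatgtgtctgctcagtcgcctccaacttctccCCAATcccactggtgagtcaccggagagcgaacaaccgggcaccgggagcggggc
Aadac: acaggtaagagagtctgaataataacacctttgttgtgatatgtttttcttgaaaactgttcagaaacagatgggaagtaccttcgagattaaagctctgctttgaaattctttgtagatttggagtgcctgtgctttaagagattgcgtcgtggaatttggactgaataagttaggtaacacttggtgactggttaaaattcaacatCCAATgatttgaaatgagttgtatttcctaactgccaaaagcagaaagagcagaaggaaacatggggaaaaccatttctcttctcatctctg
Sucnr1: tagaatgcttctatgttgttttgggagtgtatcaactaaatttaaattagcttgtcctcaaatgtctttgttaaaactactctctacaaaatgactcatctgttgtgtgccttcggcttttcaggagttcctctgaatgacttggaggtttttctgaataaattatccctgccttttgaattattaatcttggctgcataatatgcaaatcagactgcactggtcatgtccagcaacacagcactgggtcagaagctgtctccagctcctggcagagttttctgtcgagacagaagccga
Fgf2: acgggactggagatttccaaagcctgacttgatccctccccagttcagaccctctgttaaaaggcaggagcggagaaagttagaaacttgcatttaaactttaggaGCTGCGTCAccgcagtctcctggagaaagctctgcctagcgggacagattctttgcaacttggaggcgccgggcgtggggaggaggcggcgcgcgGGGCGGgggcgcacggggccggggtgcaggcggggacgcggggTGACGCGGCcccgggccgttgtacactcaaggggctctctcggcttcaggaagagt
Nudt6: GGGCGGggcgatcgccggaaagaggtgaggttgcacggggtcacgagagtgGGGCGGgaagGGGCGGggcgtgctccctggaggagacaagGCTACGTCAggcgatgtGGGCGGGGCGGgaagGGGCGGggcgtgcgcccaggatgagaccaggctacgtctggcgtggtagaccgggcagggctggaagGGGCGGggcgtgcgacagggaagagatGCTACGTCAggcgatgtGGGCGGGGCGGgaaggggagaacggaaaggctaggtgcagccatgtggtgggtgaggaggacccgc
The windows of *Fgf2* and *Nudt6* hold GGGCGG, the core of a GC box, and TGACNNNGC, the core of an antioxidant response element. The window of *Mme* holds GGGCGG and CCAAT, that of *Aadac* holds CCAAT, and none of the 10 motifs was matched in that of *Sucnr1*. In *Nudt6* neighbouring matches to GGGCGG run into each other. These matches are a description of letters only. GGGCGG occurs in 35.7% of the 32851 windows of all genes, CCAAT in 37.4% and TGACNNNGC in 12.4%.

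The other motifs were TATAAA (in 13.6% of all windows), CACGTG (7.15%), TGACGTCA (1.79%), TTGCNNAA (10.8%), the core of an interferon-stimulated response element (3.44%), a DR1 repeat of nuclear receptor sites (0.0396%) and the palindrome of HNF1 (0.00913%). Of these, TATAAA was matched in the window of *Gfm1*, and CACGTG and TTGCNNAA in that of *Slc33a1*, which also holds CCAAT. *Tnfsf10* holds CCAAT and *1810062G17Rik* holds GGGCGG. Base composition differed widely within the group. The windows of *Aadac* and *Sucnr1* are 37.3% and 40.7% G or C with 3 CpG dinucleotides each, and those of *Fgf2* and *Nudt6* are 62.7% and 70.3% with 24 and 28. Over 1 window for each of 27025 genes, the medians are 52.7% and 7. The genes that were lower in *Fmo5*-/- mice therefore include promoters of either kind.

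Per length of transcript, as TPM computed from the counts and the exonic length, the 10 genes spanned a wide range in WT liver. *Aadac* had a level of 812 ± 36.0 TPM (SD, n = 3), which is at the 99.3 percentile of the tested genes. *Sucnr1* followed with 103 ± 16.8, *Gfm1* with 49.8 ± 3.91, *Slc33a1* with 37.0 ± 1.35, *Mme* with 11.1 ± 2.82 and *Nudt6* with 9.62 ± 0.155. The lowest were *Exosc9* with 5.16 ± 0.228, *1810062G17Rik* with 2.11 ± 0.650, *Tnfsf10* with 1.94 ± 0.309 and *Fgf2* with 0.939 ± 0.0343. In this order *Mme* and *Nudt6* differed by less than the SD of *Mme*, and *1810062G17Rik* and *Tnfsf10* by less than the SD of either. These levels leave out reads in exons that 2 genes share. With those shared with a gene of the other strand added to each gene, whichever gene they came from, *Slc33a1* was at 58.5 ± 4.70 TPM, above *Gfm1*, *Nudt6* at 16.9 ± 1.02, above *Mme*, *Exosc9* at 7.18 ± 0.541, and *Fgf2* at 2.71 ± 0.277, above *1810062G17Rik* and *Tnfsf10*. The lower values divide by the full exonic length, shared exons included. *Slc33a1* had 2796 ± 35.5 normalized counts in WT over 3548 exonic bases. *Gm26850*, which shares exons with it, had 7.83 ± 0.957 over 3211. With even coverage, most shared reads would be from *Slc33a1* and, by the levels without them, from *Nudt6* rather than *Fgf2*. The higher level would then be nearer for *Slc33a1* and *Nudt6*, and the lower for *Fgf2*. Evenness was not tested, and these counts alone do not settle the places.

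In *Fmo5*-/- liver *Aadac* was again the most abundant, with 509 ± 64.1 TPM, and *Fgf2* was at 0.278 ± 0.0421 from reads in its exons alone and at 1.74 ± 0.230 with the shared reads, below *Mme* and *1810062G17Rik* by the first count and above both by the second. *Mme* was at 0.558 ± 0.230 TPM and differed from *1810062G17Rik* at 0.456 ± 0.212 by less than the SD of either. *Tnfsf10* was at 3.91 ± 0.771 TPM and differed from *Exosc9* at 3.79 ± 0.234 by less than the SD of either, but *Exosc9* was at 5.35 ± 0.422 with the shared reads. *Sucnr1* at 47.3 ± 9.78 and *Gfm1* at 37.8 ± 1.05 also differed by less than the SD of *Sucnr1*. The values below are normalized read counts, which can be compared between mice but not between genes.

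**Figure D1:**
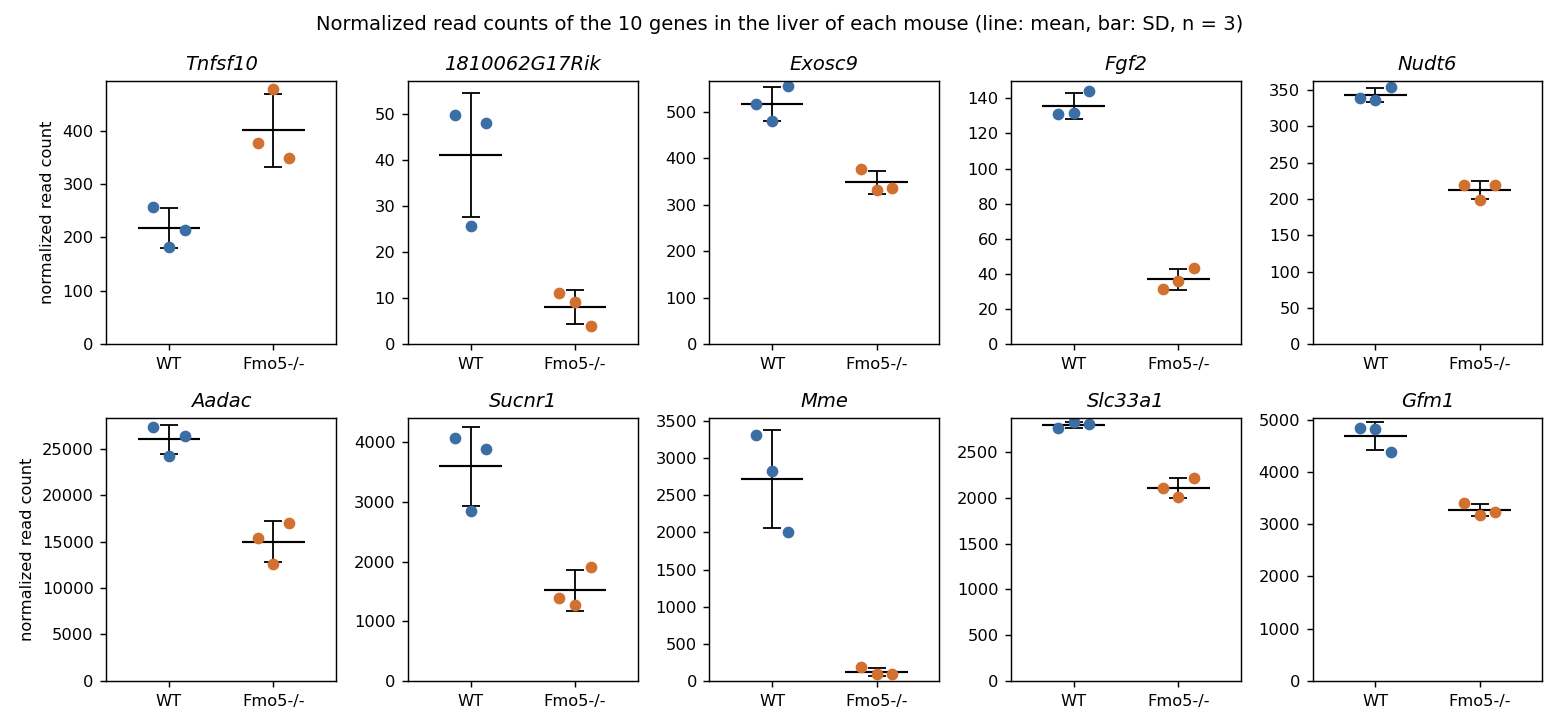
Normalized read counts (y axis, linear from 0, a scale of its own for each gene) of the 10 genes in the liver of each WT and Fmo5-/- mouse (x axis). Points are mice, lines are means and bars are SD (n = 3). In every panel the points of the genotypes are apart, and Tnfsf10 is the 1 gene with the higher points in Fmo5-/- mice.

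*Mme*, whose product is the cell-surface peptidase neprilysin, had by far the largest difference of the 10. It lies at chr3:63241537-63386030 (plus strand, mm10), 34.2 Mb from *Fmo5*. Its normalized counts were 3318, 2827 and 2006 in the WT mice and 188, 92.7 and 98.2 in the *Fmo5*-/- mice. All *Fmo5*-/- mice were far below all WT mice, and the lowest WT value was 10.7 times the highest *Fmo5*-/- value. The means were 2717 ± 663 and 126 ± 53.6, so that expression in *Fmo5*-/- mice was 4.65% of that in WT mice, a 21.5-fold difference. The log2 fold change was -4.42 (SE 0.35, 95% confidence interval -5.28 to -3.57), which ranks 9 among the falls of the 16734 tested genes. *Mme* shares no exonic bases with another gene, and the 2 strand columns of the count tables gave -4.39 and -4.43.

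Other peptidases that cut peptide hormones or amyloid were compared with *Mme* through a list of 14 genes, of which 12 had enough reads. One of the 12 passed the threshold, *Ide*, which encodes insulin-degrading enzyme and lies on chromosome 19. *Ide* had 6735, 7773 and 8429 normalized counts in the WT mice and 4091, 3745 and 3712 in the *Fmo5*-/- mice. It fell from 7646 ± 854 to 3849 ± 210 with no overlap between the genotypes (log2 fold change -0.99, SE 0.10, adjusted p = 0.00391, edgeR), and passed without any 1 mouse (adjusted p 0.00345 to 0.0177). Of the rest, *Ace*, angiotensin-converting enzyme, had the largest difference, at 34.7 ± 1.27 and 52.5 ± 3.40 counts (0.59, adjusted p = 0.150, edgeR). The median of the 12 genes was -0.08, 5 of them had an unadjusted p under 0.05 and 2 passed with DESeq2.

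*Sucnr1* and *Aadac* are adjacent genes on the plus strand, 41.7 kb apart, and both were lower in *Fmo5*-/- mice. *Sucnr1*, the succinate receptor, lies at chr3:60081869-60087566, 37.5 Mb from *Fmo5*. It had 4071, 2842 and 3882 normalized counts in the WT mice and 1382, 1269 and 1910 in the *Fmo5*-/- mice. The lowest WT mouse was above the highest *Fmo5*-/- mouse, by a ratio of 1.49. The means were 3598 ± 662 and 1520 ± 342, or 42.3% of WT, with a log2 fold change of -1.24 (SE 0.19, 95% confidence interval -1.68 to -0.81).

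*Aadac*, the esterase, lies at chr3:60025717-60040160, 37.6 Mb from *Fmo5*. It had 27375, 24247 and 26318 normalized counts in the WT mice and 15338, 12601 and 17011 in the *Fmo5*-/- mice. The groups did not overlap, and the spread within either was small beside the gap between them. The means were 25980 ± 1591 and 14983 ± 2226, or 57.7% of WT (log2 fold change -0.79, SE 0.12, 95% confidence interval -1.07 to -0.52). In bulk liver, fewer cells of a type and less RNA per cell cannot be told apart, for these genes and for all others here.

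Other genes of these processes were read from the same fit. Of 14 tested genes of succinate metabolism and transport, 0 passed the adjusted threshold with edgeR, 8 had an unadjusted p under 0.05 and 3 passed with DESeq2, and 11 had the lower mean in *Fmo5*-/- mice (median log2 fold change -0.25). The citrate and dicarboxylate carriers had the largest values, 1.09 for *Slc13a5* (33.3 ± 14.0 and 71.4 ± 27.0 counts, adjusted p = 0.146, edgeR) and -0.58 for *Slc13a2* (147 ± 72.1 and 98.4 ± 42.7, adjusted p = 0.529, edgeR), both with overlap between the genotypes. Of 15 tested genes of the list of neutral lipid and ester hydrolases, which also holds lipoprotein assembly genes, 2 fell and 0 rose past the threshold with edgeR (median -0.10), 5 had an unadjusted p under 0.05 and 5 passed with DESeq2, and *Aadacl2*, a paralogue of *Aadac*, had no counts. *Mgll*, monoacylglycerol lipase, fell from 9749 ± 1245 to 6250 ± 636 (log2 fold change -0.64, adjusted p = 0.0430, edgeR). *Mttp*, which is no hydrolase but the transfer protein that loads triglyceride onto lipoproteins, and that also lies on chromosome 3, fell from 16724 ± 1191 to 11108 ± 1431 (-0.59, adjusted p = 0.0468, edgeR). When 1 mouse was left out, *Mgll* passed in 3 of 6 fits (adjusted p 0.0344 to 0.130, highest without *Fmo5*-/- replicate 1) and *Mttp* in 0 of 6 (0.0543 to 0.131, highest without WT replicate 1).

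*Fgf2* and *Nudt6* overlap tail to tail on opposite strands, and both were lower in *Fmo5*-/- mice. *Fgf2* lies at chr3:37348346-37410108 (plus strand) and *Nudt6* at chr3:37404910-37420211 (minus strand), 60.2 Mb from *Fmo5*. The overlap spans 5199 bases and holds 640 bases that are exonic in both genes. These 640 bases are 9.44% of the exonic bases of *Fgf2* and 38.2% of those of *Nudt6*. They form one run of 585 bases at chr3:37404910-37405494, of which 395 code for NUDT6, and one of 55 bases at chr3:37409508-37409562, all coding for NUDT6, and neither run codes for FGF2. The library kit does not mark strand (the first strand column held 49.9% to 50.1% of the reads of both), and reads that fall in the exons of 2 genes were left out of the unstranded counts.

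In the counts of reads that lie in *Fgf2* alone, the WT mice had 131, 132 and 144 normalized counts and the *Fmo5*-/- mice 31.7, 35.8 and 43.2. The 3 mice of each genotype lay close together and the groups were far apart. The means were 136 ± 7.32 and 36.9 ± 5.84, so expression was 27.2% of WT (log2 fold change -1.88, SE 0.20, 95% confidence interval -2.32 to -1.43). For *Nudt6* alone the WT mice had 339, 337 and 355 counts and the *Fmo5*-/- mice 219, 198 and 220, again with no overlap. The means were 344 ± 9.77 and 212 ± 12.2, or 61.8% of WT (log2 fold change -0.69, SE 0.12, 95% confidence interval -0.96 to -0.43).

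The reads in the exons that the pair shares, recovered as the sum of the strand columns less the unstranded count of *Fgf2*, differed less. They came to 275, 204 and 289 normalized counts in the WT mice and 166, 204 and 210 in the *Fmo5*-/- mice, and here the genotypes overlapped. The means were 256 ± 45.7 and 193 ± 23.9, a log2 ratio of -0.41. These shared reads made up 65.5% of the *Fgf2* reads in the sum of the strand columns in the WT livers and 84.0% of those in *Fmo5*-/- livers, and single reads among them cannot be assigned to either gene. With them added, *Fgf2* had 392 ± 50.4 counts in WT and 230 ± 29.1 in *Fmo5*-/- mice (log2 ratio -0.77), still with no overlap, and *Nudt6* had 606 ± 52.9 and 409 ± 22.1 (-0.57). The log2 fold change of -1.88 thus holds for the part of *Fgf2* that *Nudt6* does not cover, and the size of the difference for the whole gene depends on which of them the shared reads came from. Per exonic length, the level without shared reads was higher for *Nudt6* (9.62 TPM in WT and 6.47 in *Fmo5*-/- mice) than for *Fgf2* (0.939 and 0.278). With even coverage of both genes, most of the shared reads would be from *Nudt6*. The ratio of -0.77 would then rest in large part on reads of *Nudt6*. Evenness of coverage was not tested.

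**Figure D2:**
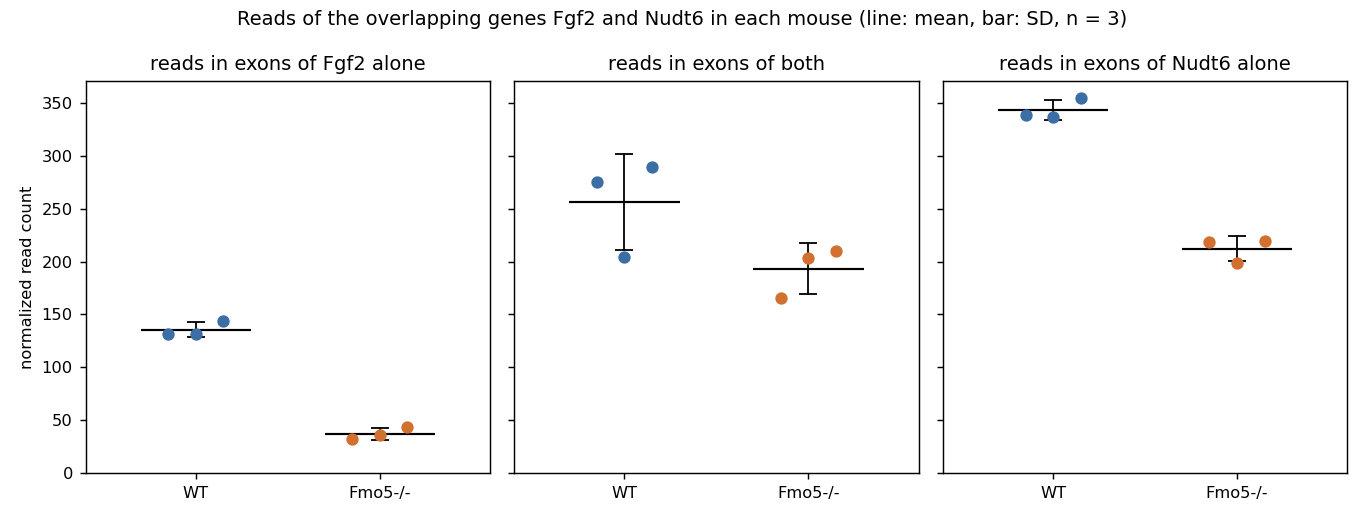
Normalized read counts (y axis) of reads in the exons of Fgf2 alone, in exonic bases of both genes, and in the exons of Nudt6 alone, for each WT and Fmo5-/- mouse (x axis); points are mice, lines are means and bars are SD (n = 3). The genotypes are apart in the first panel (131 to 144 against 31.7 to 43.2) and the last (337 to 355 against 198 to 220), and overlap in the middle one.

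Other annotated overlaps of the pair are smaller. *Nudt6* shares 316 exonic bases with *Spata5*, which had 193 ± 21.7 counts in WT and 203 ± 29.6 in *Fmo5*-/- mice (log2 fold change 0.07, adjusted p = 0.850, edgeR). *Fgf2* shares 255 bases with *Gm43439* on the same strand, which had no counts, and its span also holds the antisense transcript *Fgf2os* and the model *Gm42923*, with no shared exonic bases. Reads in the 255 bases are in none of the 3 count columns, so they could not be recovered.

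The FGF and Nudix lists were read in the same way. Of 15 tested FGF ligands, receptors and cofactors, 1 passed the threshold with edgeR, 2 had an unadjusted p under 0.05, 2 passed with DESeq2, and the median was -0.05 (0.01 in a fit on genes with a mean of 500 or more). The 1 called with edgeR was *Fgf21*, a hormone secreted by the liver, with 157, 102 and 107 normalized counts in the WT mice and 42.9, 14.7 and 41.2 in the *Fmo5*-/- mice. All *Fmo5*-/- values were below all WT values, with means of 122 ± 30.3 and 32.9 ± 15.8 (log2 fold change -1.89, SE 0.37, adjusted p = 0.0494, edgeR), but the adjusted p was up to 0.141 when 1 mouse was left out (without WT replicate 1). *Gpc1*, a heparan sulphate proteoglycan, had the next largest value at -0.56 (826 ± 136 and 560 ± 191 counts, adjusted p = 0.288, edgeR). Of 17 tested Nudix hydrolases 0 passed with edgeR, 3 had an unadjusted p under 0.05, 1 passed with DESeq2, and the median was -0.10. *Nudt12*, a peroxisomal NADH diphosphatase, had 2953 ± 389 and 2153 ± 75.5 counts (-0.46, adjusted p = 0.0633, edgeR).

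By the unstranded counts *Slc33a1*, *Gfm1* and *Exosc9* had the smallest differences of the 10, with tight replicates. On the first strand column the difference of *Nudt6* (log2 fold change -0.55) was slightly smaller than that of *Exosc9* (-0.56). *Slc33a1*, the acetyl-CoA transporter, lies at chr3:63933507-63964768 (minus strand), 547 kb beyond the end of *Mme*. It had 2758, 2828 and 2804 normalized counts in the WT mice and 2105, 2005 and 2220 in the *Fmo5*-/- mice. The WT mice lay within a coefficient of variation of 1.27% and above every *Fmo5*-/- mouse. The means were 2796 ± 35.5 and 2110 ± 108, or 75.5% of WT (log2 fold change -0.41, SE 0.074, 95% confidence interval -0.57 to -0.24). Its 5′ end overlaps the antisense gene *Gm26850* over 1136 bases (chr3:63963633-63964768), and 36.5% of its reads in WT and 35.1% in *Fmo5*-/- mice fell there and were left out of the counts. With them added the means were 4411 ± 230 and 3249 ± 331, a log2 ratio of -0.44. Outside the shared bases *Gm26850* had 7.83 ± 0.957 normalized counts in WT and 8.88 ± 3.40 in *Fmo5*-/- mice, too few for a test.

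*Gfm1*, the mitochondrial elongation factor, lies at chr3:67430096-67476529 (plus strand), 30.2 Mb from *Fmo5*. It had 4844, 4826 and 4384 normalized counts in the WT mice and 3402, 3172 and 3235 in the *Fmo5*-/- mice. The lowest WT mouse was 1.29 times the highest *Fmo5*-/- mouse. The means were 4685 ± 260 and 3270 ± 119, or 69.8% of WT (log2 fold change -0.52, SE 0.079, 95% confidence interval -0.70 to -0.34). Its 63 exonic bases shared with *Lxn* took under 1% of its reads, and *Lxn* had 36.2 ± 9.35 and 42.2 ± 7.67 counts (log2 fold change 0.22, adjusted p = 0.695, edgeR).

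*Exosc9*, the exosome subunit, lies at chr3:36552606-36565727 (plus strand), 61.1 Mb from *Fmo5*. It had 517, 481 and 555 normalized counts in the WT mice and 377, 332 and 337 in the *Fmo5*-/- mice, with no overlap. The means were 518 ± 37.1 and 349 ± 24.8, or 67.4% of WT (log2 fold change -0.57, SE 0.11, 95% confidence interval -0.82 to -0.32). It shares 510 bases at its end (chr3:36565218-36565727) with *Ccna2*, the cell cycle cyclin A2 on the opposite strand, and 28.3% of its reads in WT and 29.3% in *Fmo5*-/- mice were left out for that reason. *Ccna2* itself had 39.5 ± 3.37 and 78.4 ± 23.5 counts, the opposite direction (log2 fold change 0.99, adjusted p = 0.0845, edgeR).

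The lists that go with these 3 genes held 1 gene past the threshold with edgeR. Of 13 tested genes of acetyl-CoA supply and acetylation in the endoplasmic reticulum, *Acat1*, a mitochondrial acetyl-CoA acetyltransferase, fell from 28930 ± 1687 to 21036 ± 1209 (log2 fold change -0.46, SE 0.091, adjusted p = 0.0494, edgeR), with an adjusted p of up to 0.162 when 1 mouse was left out (WT replicate 1). In the same list the carnitine acetyltransferase *Crat* had 2946 ± 510 and 1915 ± 228 counts (-0.62, adjusted p = 0.0594, edgeR) and the N-acetyltransferase *Nat8f5* 855 ± 258 and 605 ± 139 (-0.50, adjusted p = 0.288, edgeR). The median of this list was -0.17, 5 of its genes had an unadjusted p under 0.05 and 2 passed with DESeq2. Of 13 mitochondrial translation factors 0 passed with either edgeR or DESeq2, 3 had an unadjusted p under 0.05, and 11 had the lower mean (median -0.10). *Gfm2*, the paralogue that recycles mitochondrial ribosomes, had 3045 ± 172 and 2637 ± 150 counts (-0.21, adjusted p = 0.183, edgeR), and *Guf1* had 869 ± 43.9 and 747 ± 28.2 (-0.22, adjusted p = 0.167, edgeR). Of 19 exosome subunits and cofactors 0 passed with either tool, 5 had an unadjusted p under 0.05, and the median was -0.06 (0.01 in the fit on genes with a mean of 500 or more). *C1d* had 2610 ± 160 and 2151 ± 156 counts (-0.28, adjusted p = 0.112, edgeR) and *Zcchc7* had 1266 ± 112 and 1521 ± 93.1 (0.27, adjusted p = 0.138, edgeR), and *Exosc6* had no counts.

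*1810062G17Rik* lies at chr3:36475937-36482299 (plus strand), 70.3 kb from *Exosc9*, and was the least sampled of the 10. The WT mice had 47, 23 and 47 raw reads and the *Fmo5*-/- mice 12, 10 and 4. Normalized, these were 49.8, 25.7 and 48.1 against 11.2, 9.18 and 3.93, with the lowest WT mouse 2.30 times the highest *Fmo5*-/- mouse. The means were 41.2 ± 13.5 and 8.09 ± 3.75, or 19.7% of WT. The log2 fold change was -2.32 with a wide error (SE 0.41, 95% confidence interval -3.25 to -1.39), from 4 to 12 reads in each *Fmo5*-/- mouse.

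*Tnfsf10*, which encodes the death receptor ligand TRAIL, was the 1 gene of the 10 that was higher in *Fmo5*-/- mice. It lies at chr3:27317028-27342427 (plus strand), 70.3 Mb from *Fmo5* and 9.13 Mb from the nearest of the others. It had 257, 183 and 214 normalized counts in the WT mice and 376, 478 and 349 in the *Fmo5*-/- mice. The lowest *Fmo5*-/- mouse was 1.35 times the highest WT mouse. The means were 218 ± 37.4 and 401 ± 68.3, a ratio of 1.84 (log2 fold change 0.88, SE 0.17, 95% confidence interval 0.49 to 1.26).

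TRAIL is made by T, NK and myeloid cells and is induced by interferon, and markers of these were read in the same livers. The 8 T or NK cell markers all had the higher mean in *Fmo5*-/- mice, with a summed level of 91.5 to 202 normalized counts in WT and 382, 1027 and 290 in the *Fmo5*-/- mice, in the order in which those mice are listed for *Tnfsf10*. Of these 8 genes 0 passed with edgeR, 6 had an unadjusted p under 0.05 and 5 passed with DESeq2. The 8 Kupffer cell or macrophage markers also all had the higher mean, with sums of 9045 to 10777 in WT and 25980, 24690 and 14133 in the *Fmo5*-/- mice. Of these, 1 passed with edgeR, *Clec4f* (3565 ± 368 and 5773 ± 632, log2 fold change 0.70, adjusted p = 0.0275), while 8 had an unadjusted p under 0.05 and 7 passed with DESeq2. The 12 interferon-stimulated genes had sums of 11119 to 12314 in WT and 15367, 19193 and 15179 in the *Fmo5*-/- mice, and all 12 had the higher mean. Of the 12, 4 rose past the threshold with edgeR (*Ifit1*, *Irf7*, *Oas1a* and *Usp18*), 12 had an unadjusted p under 0.05 and 9 passed with DESeq2. With 1 mouse left out *Irf7* passed in 6 of 6 fits, *Usp18* in 5, *Clec4f* in 2 and *Ifit1* and *Oas1a* in 1. None of the markers of these 3 lists was at 0, and their part in the result for *Tnfsf10* was not tested.

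Of the receptors and signalling genes of TRAIL, 18 were tested, 0 passed with either edgeR or DESeq2, and 7 had an unadjusted p under 0.05. The higher mean was in *Fmo5*-/- mice for 12 of the 18, with a median log2 fold change of 0.12. The decoy receptor *Tnfrsf23* had the largest value (16.3 ± 0.949 and 27.9 ± 4.63 counts, 0.77, adjusted p = 0.145, edgeR), followed by its relative *Tnfrsf26* (34.3 ± 16.1 and 48.3 ± 8.29, 0.49, adjusted p = 0.451, edgeR).

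Beside the 9 genes that were lower, the levels of markers of other cells were as follows. The 6 hepatocyte markers had sums of 5020300 to 6653030 in WT and 5167010 to 6486290 in *Fmo5*-/- mice, which overlap, and 0 of the 6 passed with edgeR or DESeq2 or had an unadjusted p under 0.05. Sums also overlapped for sinusoidal endothelial cells (9902 to 11569 and 10311 to 10741) and for stellate cells or fibroblasts (10545 to 12948 and 10774 to 15059), with 0 called by edgeR in each, 1 and 0 called by DESeq2, and 3 and 2 at an unadjusted p under 0.05. Those for cholangiocytes overlapped as well (1773 to 3300 and 2196 to 2619), with none of the 6 markers at an unadjusted p under 0.05 or called by either tool. Of the adipocyte markers, 3 were tested and 1 fell with edgeR, *Cidec* (396 ± 97.0 and 159 ± 21.5), with sums of 1065 to 2062 and 562 to 1714, and 2 were called by DESeq2. The other tested markers were *Cfd*, at 653 ± 265 and 69.9 ± 50.7 counts with no overlap (log2 fold change -3.21, adjusted p = 0.0633, edgeR), and *Fabp4*, at 402 ± 108 and 769 ± 550 with overlap (0.94, adjusted p = 0.418, edgeR). The neutrophil sums were 152 to 291 and 342 to 633, with 1 of 4 tested markers higher past the threshold with edgeR (*Csf3r*), 2 with DESeq2 and 4 at an unadjusted p under 0.05, and the B or plasma cell sums were 301 to 406 and 415 to 517, with 0 of 6 called by either tool or at an unadjusted p under 0.05. The 6 pancreatic markers had sums of 1343 to 1662 and 1629 to 2167, of which the 1 tested, *Cela1*, held 1532 ± 168 and 1888 ± 269 counts (0.30, adjusted p = 0.191, edgeR), and *Cpa1* and *Cel* were at 0 in every library.

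**Figure D3:**
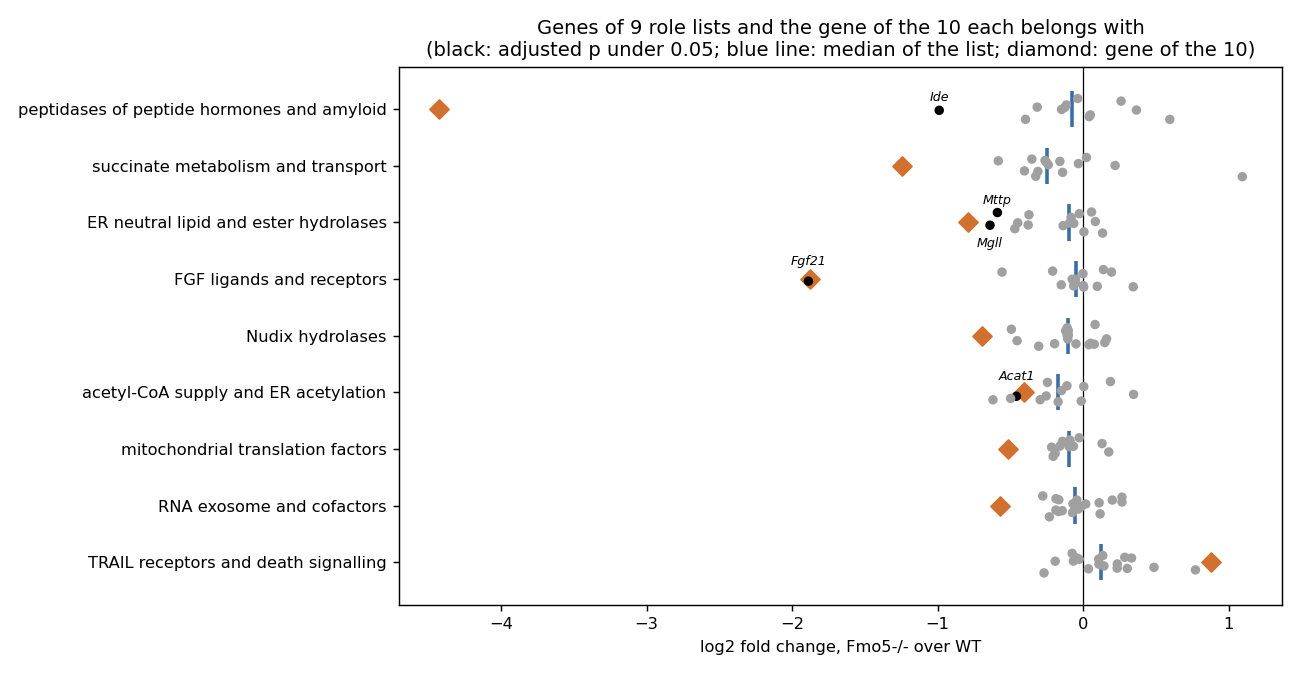
Log2 fold change, Fmo5-/- over WT (x axis), of the tested genes of the 9 role lists (rows), with the gene of the 10 that each list goes with as an orange diamond. Black points passed an adjusted p of 0.05, blue lines are list medians, and the vertical place of a point within a row carries no value. The 5 black points are all below 0, and the medians lie between -0.25 and 0.12.

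Over all 9 lists 136 genes were tested and 5 passed the threshold, all lower, which is 3.68% beside 1.37% of all tested genes. Their median log2 fold change was -0.08, beside 0.01 over all tested genes. In each list the gene of the 10 lay beyond the median in the direction of its own change, which follows from how the 10 were chosen.

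The 10 genes were then set against the other genes of their own stretch of the chromosome. Between 30 and 71 Mb from *Fmo5* on the side of the 10, 156 other genes were tested. Of these, 3 passed the threshold and all 3 were lower. Since the 10 were taken out for their change, the share of the rest (1.92%) is lowered by that choice, and nothing is read from it beside the 1.37% of all tested genes or the shares of whole stretches. The same choice bears on the other values of these 156 genes. The median log2 fold change of the 156 genes was -0.14, the lower mean was in *Fmo5*-/- mice for 64.1% of them, beside 49.2% of all tested genes, and the genotypes did not overlap for 37.2%, beside 27.4% of all tested genes. An unadjusted p under 0.05 was found for 42 of the 156, and 17 passed with DESeq2. With the 10 included, 13 of 166 genes were called, or 7.83%, a share that the choice of the 10 sets.

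Of the 3, *Mccc1*, a subunit of the leucine-catabolic enzyme methylcrotonoyl-CoA carboxylase, lies 61.6 Mb from *Fmo5*, between *Tnfsf10* and *1810062G17Rik*. *Mccc1* had 3565, 3316 and 3116 normalized counts in the WT mice and 1982, 1976 and 2169 in the *Fmo5*-/- mice (3332 ± 225 and 2042 ± 109, log2 fold change -0.71, SE 0.083, adjusted p = 0.00850, edgeR). *Serp1*, a stress-associated protein of the endoplasmic reticulum, at 39.1 Mb, fell from 15706 ± 1761 to 10543 ± 335 (-0.57, adjusted p = 0.0378, edgeR). *Ssr3*, a subunit of the translocon-associated complex, at 32.2 Mb, fell from 13572 ± 1394 to 9457 ± 433 (-0.52, adjusted p = 0.0459, edgeR). In all 3 genes every WT mouse was above every *Fmo5*-/- mouse. When 1 mouse was left out the adjusted p ranged from 0.00614 to 0.0503 for *Mccc1*, from 0.0349 to 0.116 for *Serp1* and from 0.0463 to 0.129 for *Ssr3*, with *Mccc1* past the threshold in all but 1 fit (without *Fmo5*-/- replicate 1).

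The other stretches of chromosome 3 were counted whole. Beyond 71 Mb on the same side, 0 of 53 tested genes passed with edgeR, 11 had an unadjusted p under 0.05 and 4 passed with DESeq2. Within 30 Mb of *Fmo5*, 14 of 281 genes passed on the side of the 10 (4.98%, 3 lower and 11 higher) with edgeR and 5 of 213 on the other (2.35%). At 30 Mb or more on the other side, 7 of 152 passed (4.61%, 4 lower and 3 higher), and on all other chromosomes 189 of 15868 (1.19%). DESeq2 put 41 of the 281, 29 of the 213, 18 of the 152 and 1270 of the 15868 genes past the threshold, and 71, 58, 41 and 3413 had an unadjusted p under 0.05 with edgeR. The share on the other side was thus lower within 30 Mb than farther off with edgeR and higher with DESeq2. The median log2 fold change was -0.14 in the stretch of the 10 without them and between -0.05 and 0.04 in the other stretches. No test was made of these differences between stretches.

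**Figure D4:**
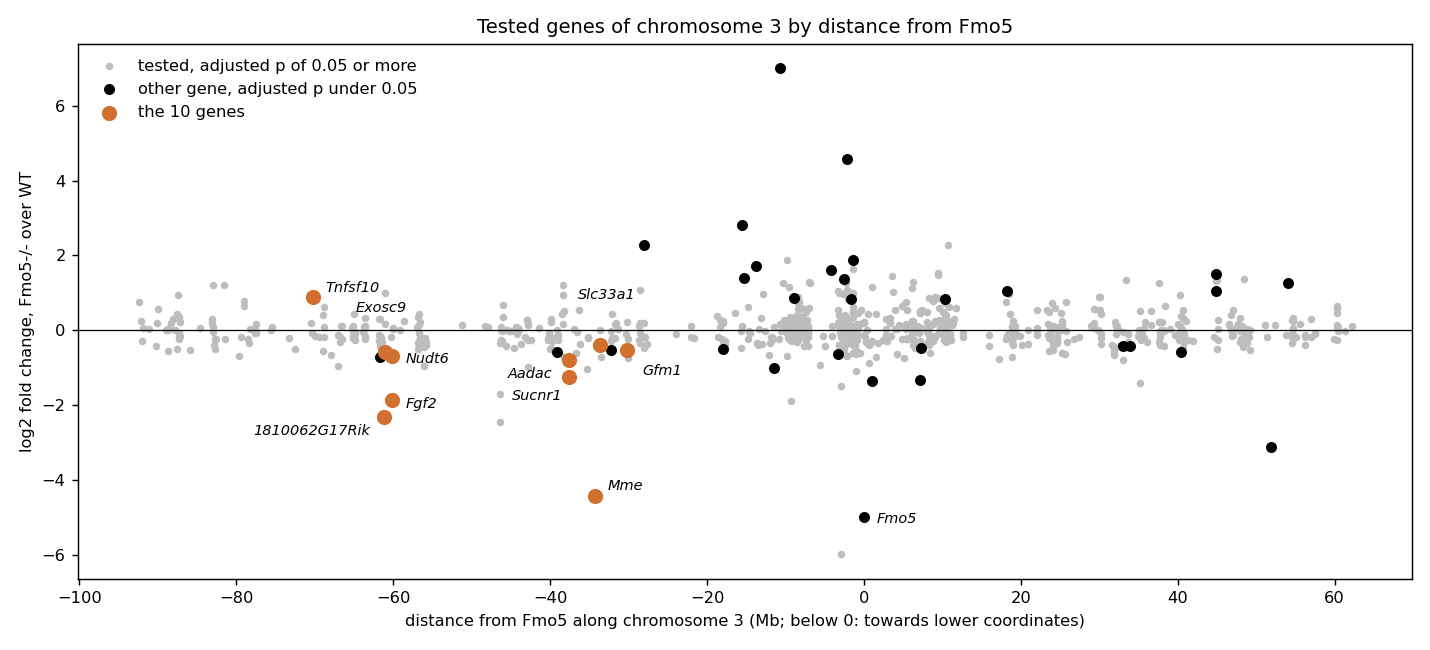
Log2 fold change, Fmo5-/- over WT (y axis), of the tested genes of chromosome 3 by distance from Fmo5 in Mb (x axis, below 0 towards lower coordinates). Orange points are the 10 genes, black points other genes past an adjusted p of 0.05 and grey points the rest. The 10 lie between 30.2 and 70.3 Mb to the left of Fmo5, singly or in small clusters among grey points, some of which also lie away from 0.

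Along the chromosome the 10 do not form one block. In order they are *Tnfsf10*, *1810062G17Rik*, *Exosc9*, *Fgf2*, *Nudt6*, *Aadac*, *Sucnr1*, *Mme*, *Slc33a1* and *Gfm1*. The 4 genes from *1810062G17Rik* to *Nudt6* lie close together, with gaps of 70.3 kb and 783 kb before the overlapping pair. A gap of 22.6 Mb separates *Nudt6* from *Aadac*, one of 3.15 Mb *Sucnr1* from *Mme*, and one of 3.47 Mb *Slc33a1* from *Gfm1*.

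The nearest tested coding genes outside the 10, 2 on either side of each, come to 25 different genes, since adjacent genes share neighbours. The 10 themselves were skipped in this count, although several are nearest neighbours of each other (*Aadac* and *Sucnr1*, *Fgf2* and *Nudt6*). Of these 25, 0 passed the threshold with edgeR, 8 had an unadjusted p under 0.05 (6 of them lower) and 5 passed with DESeq2. The lower mean was in *Fmo5*-/- mice for 15 and the higher for 10, with a median log2 fold change of -0.04 and a range from -0.75 to 0.99. The ends of this range are *Rarres1*, beside *Gfm1*, with 4140 ± 1334 and 2459 ± 244 counts (adjusted p = 0.138, edgeR), and *Ccna2*. *Ccna2*, *Spata5* and *Lxn* overlap one of the 10, and the closest neighbour that does not is *Anxa5*, 43 bases from *1810062G17Rik*, which had 3933 ± 531 and 2683 ± 343 counts (-0.55, SE 0.12, adjusted p = 0.0617, edgeR). *Rarres1* and *Anxa5* were named after their values had been seen. The 4 genes outside the 10 that were taken beside *Mme* had values between -0.28 and 0.00, beside -4.42 for *Mme* itself and -0.41 for *Slc33a1*, which lies between them.

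**Figure D5:**
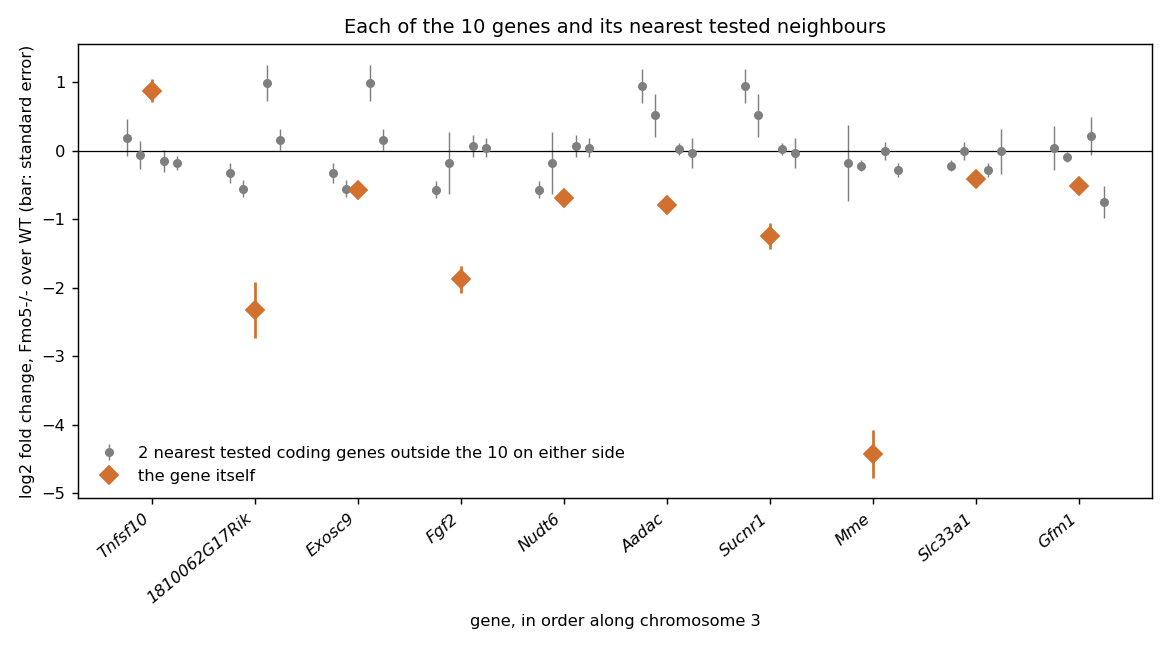
Log2 fold change, Fmo5-/- over WT (y axis), of each of the 10 genes (orange diamonds) and of the 2 nearest tested coding genes outside the 10 on either side (grey points), in order along the chromosome (x axis). Bars are standard errors of the fit. The grey points lie between -0.75 and 0.99, and those of Mme between -0.28 and 0.00.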

How the data were processed

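RNA-seq was carried out on the livers of 3 WT and 3 *Fmo5*-/- mice, with single reads of 75 bases. The authors clipped adapters, mapped reads to mm10 with STAR and counted reads per gene with STAR, and the deposited raw counts (unstranded, and for each strand) were used here. The authors' DESeq2 table holds deposited signal columns, which are raw counts divided by 1 size factor per library (largest deviation 0.000549%), and the authors' log2 fold changes, statistics (a score) and p-values, which were not used. Strand columns hold other counts, deposited by the authors, of the same reads for 1 strand. The release of the annotation is not given in the sources used here. Positions are from GENCODE vM21 (GRCm38, 54409 of 54446 identifiers).

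Genes were filtered with filterByExpr (minimum count 10), scaled by TMM and compared with edgeR 4.0.16 in R 4.3.3 (robust quasi-likelihood), with Benjamini-Hochberg adjustment over 16734 genes and a threshold of 0.05, and 229 genes passed. Samples labelled as separate mice are the replicates, and p-values measure the spread between them. DESeq2 1.42.0 gave an adjusted p for 15571 genes. The rows of unmapped, multimapping and unassigned reads were left out, so that 66.2% to 69.2% of listed reads were counted. TPM were computed from raw counts and exonic lengths. Intervals of single-gene fold changes are 95% intervals of the fit.

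The members and lists were chosen with earlier results of these data known. The genes named by rule are the 10, *Fmo5*, the genes of the role lists past the threshold and the 2 with the largest change in each, genes of the stretch and neighbours past the threshold, and genes that overlap the 10. One gene that this rule names is not reported here. The neighbours *Rarres1* and *Anxa5*, *B3galnt1* and the single marker genes fall outside it and were named after their values were seen. On simulated counts for this comparison (16734 genes), edgeR recovered 20.9%, 70.1% and 97% of genes changed by a log2 of 0.5, 1 and 2, with 9 false calls among 134. Alternatives were DESeq2, RLE factors, scaling without the 20 most abundant genes, no filter, a mean of 500 or more, each strand column, the sum of both, and leaving out each library. The second strand column and the sum were chosen after seeing the data. Promoters are RefSeq GRCm38.p6 windows.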

Additional observations from a re-analysis of the deposited data

How the results depend on the processing

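None of the 10 genes changed direction in any alternative, and the log2 fold changes of *Mme* stayed between -4.83 and -4.24. The number of the 10 past the threshold, 10 as reported, was 3 when only genes with a mean of 500 or more were fitted (5 of the 10 reach it) 7 on either strand column, and 2 to 9 when 1 library was left out. The second strand column lost *Fgf2*, *Exosc9* and *Slc33a1*, and the first *Tnfsf10*, *Nudt6* and *1810062G17Rik*. Without 1 library at a time, *Fgf2* and *Mme* passed in 6 of 6 fits, *Aadac* in 3, *Sucnr1*, *Gfm1* and *1810062G17Rik* in 2, *Tnfsf10*, *Nudt6* and *Slc33a1* in 1 and *Exosc9* in 0. *Fgf2* had -0.74 and -0.77 on the single strand columns and -0.77 on their sum, *Nudt6* -0.55, -0.55 and -0.57, and *Slc33a1* -0.34 in the fit on genes with a mean of 500 or more. For *Fgf2* and *Nudt6* the strand columns also hold the reads in the exons that the pair shares.

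Over all tested genes, 229 as reported became 1395 with DESeq2, 1989 with no filter, 53 with the mean of 500, and 31 (without *Fmo5*-/- replicate 1) to 763 (without *Fmo5*-/- replicate 3). The 5 called genes of the role lists became 15, 21 and 1 in the same 3 settings, 3 on the second strand column, and 1 to 4 without 1 library. The 3 others of the stretch became 17, 18 and 1, then 8 and 6 on the first and second strand columns, and 0 (without *Fmo5*-/- replicate 1) to 7 (without *Fmo5*-/- replicate 3). The 0 neighbours became 5 with DESeq2, 5 with no filter, 3 on the first strand column, and 0 to 2 without 1 library. *Ide* passed in 6 of 6 leave-one-out fits and *Mccc1* in 5 (adjusted p = 0.0503 without *Fmo5*-/- replicate 1, edgeR), while *Mgll* passed in 3, *Serp1* and *Fgf21* in 2, *Acat1* and *Ssr3* in 1 and *Mttp* in 0 (*Cidec* passed in 3 and *Csf3r* in 1). The cause of these differences was not tested, beyond the fewer genes or libraries that some settings hold. The medians of the FGF and exosome lists changed sign (to 0.01) in the fit on a mean of 500 or more, and that of the FGF list without *Fmo5*-/- replicate 2 (0.0044). No setting moved the median of all genes by more than 0.064 on the log2 scale. No paired analysis was possible because the labels give the mice no replicate numbers that the genotypes share. Depth limits *1810062G17Rik* most, with 4 to 12 reads in *Fmo5*-/- mice.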
